A study of Mus musculus with 2 samples.

Results

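The adhesion G protein-coupled receptors of adult mouse lung were read from polyadenylated RNA sequencing of whole lung tissue. Members were the protein-coding genes whose mouse symbol starts with Adgr in both gene tables, together with their transcripts in both transcript tables. The rule gave 27 genes of 21474 protein-coding genes and 43346 gene rows in all, with 155 transcripts. It used names only, not measured values. It does not reach Celsr1, Celsr2 and Celsr3, which are adhesion receptors under another name and are given apart.

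The study measured 1 group, the lung of C57BL/6J mice aged 8 weeks, as 2 libraries numbered replicates 1 and 2. The animals were littermates of both sexes, with no genotype change and no treatment named. The labels give both libraries 1 donor record and separate tissue samples but no number of animals, so differences between the libraries may be partly technical. With no second condition, no test between groups was possible, and levels are given with the spread of the 2 libraries.

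Adhesion receptors join a long extracellular part, built from modules that bind matrix or other cells, to a membrane part with 7 helices. Between them lies the GAIN domain (G protein-coupled receptor autoproteolysis-inducing), which in many members cuts the chain at the GPCR proteolysis site. The pieces stay attached, and the stretch after the cut can act as a tethered agonist that couples the receptor to heterotrimeric G proteins. In lung the family is known for Adgrf5, which restrains the surfactant pool made by alveolar type 2 cells, and for receptors of endothelium and of leukocytes.

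The proteolysis site is the feature that defines the family's chemistry. Its coding sequence was searched in the longest GENCODE M21 coding transcript of each member. For Adgrf5, Adgrl2 and Adgrg6 this was Adgrf5-206, Adgrl2-208 and Adgrg6-203, none of them among the transcript models quantified in these libraries. For Adgrl1 it was Adgrl1-210, which held 1.52% of the gene's TPM in replicate 1 and 1.27% in replicate 2. The search, on the coding strand only and in frame, required a histidine codon (CAC or CAT), a leucine codon (CTN, TTA or TTG) and a serine or threonine codon (TCN, AGC, AGT or ACN). It also required a cysteine codon (TGC or TGT) at the second place before the histidine and at least 200 codons after it. The 45 bases around the match are shown for the 11 members with a match among those detected in lung, from the most to the least abundant, 5′ to 3′. The 9 bases in capitals are the histidine, leucine and serine or threonine codons, and the cut of the protein falls before the last of these residues.
Adgre5: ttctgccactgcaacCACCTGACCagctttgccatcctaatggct
Adgrf5: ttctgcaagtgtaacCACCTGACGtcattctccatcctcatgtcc
Adgrg1: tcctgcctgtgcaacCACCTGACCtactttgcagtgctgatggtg
Adgrl1: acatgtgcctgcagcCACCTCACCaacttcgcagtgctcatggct
Adgrl4: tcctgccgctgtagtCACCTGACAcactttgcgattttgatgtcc
Adgrl2: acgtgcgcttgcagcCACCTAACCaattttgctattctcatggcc
Adgrl3: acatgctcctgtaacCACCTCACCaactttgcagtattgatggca
Adgrg3: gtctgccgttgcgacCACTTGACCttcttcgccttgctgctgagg
Adgrd1: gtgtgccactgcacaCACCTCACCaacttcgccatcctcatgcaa
Adgrg5: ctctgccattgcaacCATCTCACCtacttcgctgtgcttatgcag
Adgre4: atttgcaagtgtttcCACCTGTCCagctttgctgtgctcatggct

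The match was present in 16 of the 27 members (59.3%), against 83 of all 21363 protein-coding genes with a complete start (0.389%). Without the cysteine codon it was present in 18 members, the 2 additions being Adgrb1 and Adgrv1, and in 11.5% of all genes. Threonine was the third residue in 14 of the 16 and serine in the other 2, Adgre4 and Adgrb2. All 16 had a phenylalanine codon at the second place after the motif, which the search did not ask for, and 284 to 679 codons followed the match. Of the 15 receptors detected in lung, 11 had a match, and Adgra2, Adgra3, Adgrg6 and Adgre1 did not. A missing match says only that these letters were not found in that transcript.

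On mm10 the Adgre5 window lies at chr8:83725880-83725924 on the minus strand and the Adgrf5 window at chr17:43450371-43450415 on the plus strand. The Adgrl1 window lies at chr8:83933991-83934035, the Adgrl4 window at chr3:151509320-151509364 and the Adgrl3 window at chr5:81694568-81694612, all on the plus strand. The Adgrl2 window lies at chr3:148837579-148837623 on the minus strand. The windows of Adgrd1 at chr5:129171870-129171914 and of Adgre4 at chr17:55799720-55799764 are on the plus strand. Those of Adgrg1, Adgrg3 and Adgrg5 are joined from a pair of exons, at chr8:95007627-95008373, chr8:95036650-95036828 and chr8:94936471-94937223 on the plus strand.

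In lung, 15 of the 27 members (55.6%) reached 1 TPM (transcript abundance scaled by length and to a fixed library total) in both libraries, against a background of 60.5% of all protein-coding genes. A further 3 members, Adgrg2, Adgrf2 and Adgrv1, reached 1 TPM in replicate 1 alone, and Adgrb2 did so in replicate 2 alone. The other 8 stayed below 1 TPM in both libraries, and Adgrb3, Adgrf1 and Adgrg4 had no counts in either. The summed level of the family was 1213 TPM in replicate 1 and 1119 TPM in replicate 2, a mean of 1166 ± 66.3 TPM (SD, n = 2). That was 0.124% and 0.114% of all gene TPM. Receptor genes took 166964 and 141992 of 48234758 and 44182823 gene counts.

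The median level of the members was 2.41 on the log2(TPM + 1) scale in each library. It fell on Adgre4, at 4.30 TPM, in replicate 1 and on Adgrb2, at 4.31 TPM, in replicate 2. This agreement is between different members and does not measure the spread of a level. The median protein-coding gene stood at 2.51 in replicate 1 and 2.17 in replicate 2. The median of the receptors is thus close to that of an ordinary gene, but the levels were very unequal. The 3 most abundant members, Adgre5, Adgrf5 and Adgrg1, held 71.5% of the family's TPM in replicate 1 and 69.5% in replicate 2. By subfamily, E held 47.7% and 47.3% of the family's TPM, L 16.9% and 18.1%, F 14.7% and 11.5%, G 13.2% and 14.0%, and A 6.72% and 8.14%, each in replicate 1 and then replicate 2. Subfamilies B, D and V each held under 1% in both libraries. Over coding models alone L stood below F and G in both libraries, so its place depends on the models counted. Coding models held 63.2% and 56.2% of Adgrl1 TPM, 74.1% and 54.1% of Adgrl2 and 60.4% and 72.9% of Adgrl4. They held 100% of Adgrf5 and Adgrg1.

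**Figure D1:**
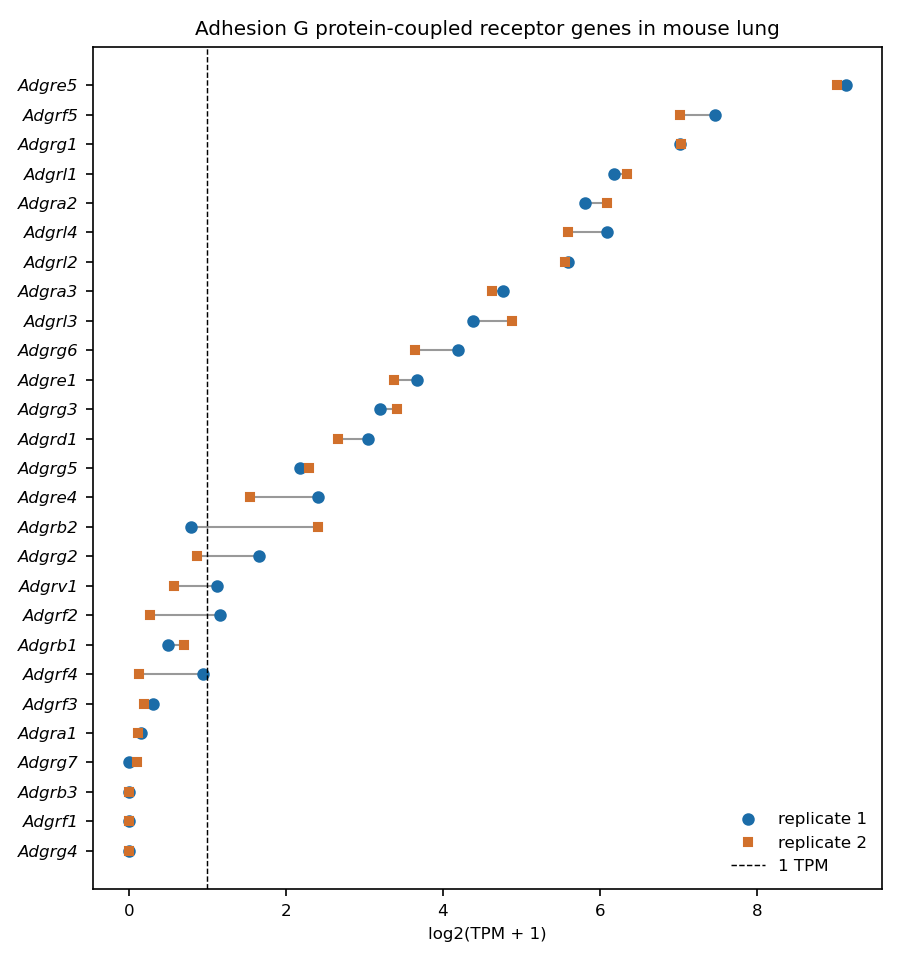
Level of each of the 27 adhesion receptor genes in lung, on the log2(TPM + 1) scale, with a circle for replicate 1 and a square for replicate 2, joined by a line. The dashed line marks 1 TPM. Adgre5 stands above all others in both libraries, 15 members lie right of the line in both, and the widest gaps between the libraries lie at or near the line.

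The E subfamily, receptors with EGF-like modules that are best known from leukocytes, was led by Adgre5 (CD97), a receptor for Cd55. Adgre5 measured 562 TPM in replicate 1 and 519 TPM in replicate 2, a mean of 540 ± 30.9 TPM (SD, n = 2), from 51152 and 44872 counts. It ranked at position 176 of the 21474 protein-coding genes by mean TPM and was the highest member in both libraries. Its gene lies at chr8:83723251-83741326 on the minus strand, where its exons share 797 bases with exons of Ddx39 on the other strand. Ddx39 had 1170 and 931 counts, and the sources used here do not say whether the counting used strand.

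Adgre1 encodes F4/80, the classical surface marker of mouse macrophages. It measured 11.7 TPM in replicate 1 and 9.40 TPM in replicate 2. Adgre4, a myeloid receptor, measured 4.30 and 1.91 TPM, the lowest mean among the 15 detected members. All 3 E receptors were higher in replicate 1 on the TPM scale, though Adgre5 was not so in TMM-scaled counts. The macrophage and monocyte markers summed to 316 TPM in replicate 1 and 294 TPM in replicate 2, with 0 of 9 markers 2-fold apart. In whole tissue, fewer cells of a type and less RNA per cell cannot be told apart.

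Among the F receptors only Adgrf5 was detected. Adgrf5 (chr17:43360451-43459557, plus strand) is the surfactant regulator named above, with the lectin Sftpd among its reported ligands. It measured 176 TPM in replicate 1 and 129 TPM in replicate 2, a mean of 152 ± 33.5 TPM (SD, n = 2), and its 52921 and 37776 counts made it the member with the most counts in replicate 1. Replicate 1 was higher. Adgrf1 lies 35.7 kb from Adgrf5 on the same chromosome and had no counts in either library. The type 2 cell markers summed to 30785 TPM in replicate 1 and 31986 TPM in replicate 2, with 0 of 7 markers 2-fold apart.

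Adgrg1 (GPR56), a receptor for collagen III and transglutaminase 2, led the G receptors. It measured 129 TPM in replicate 1 and 130 TPM in replicate 2, a mean of 129 ± 1.05 TPM (SD, n = 2). The libraries differed little on the TPM scale. In TMM-scaled counts replicate 2 was higher, with a ratio of 0.845 for replicate 1 over replicate 2. The ranges of Adgrg1 and Adgrf5 overlap, so their order is not separated by the spread of the libraries. Adgrg1 stands in a row of 3 receptor genes on chr8, with Adgrg5 31.5 kb away on one side and Adgrg3 3.5 kb away on the other. Adgrg3 (GPR97), known from neutrophils, measured 8.17 TPM in replicate 1 and 9.71 TPM in replicate 2, and Adgrg5 measured 3.54 and 3.92 TPM. The middle gene of the row was thus more than 10 times as abundant as either neighbour in both libraries. Adgrg6 (GPR126), which drives myelination by Schwann cells, measured 17.3 TPM in replicate 1 and 11.5 TPM in replicate 2. Schwann cell and neuron markers summed to 118 TPM in replicate 1 and 102 TPM in replicate 2.

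All 4 L receptors were detected. Adgrl1, Adgrl2 and Adgrl3 are the latrophilins, which bind teneurins and FLRT proteins on neighbouring cells, and Adgrl4 (ELTD1) is a receptor of blood vessel endothelium. Adgrl1 measured 71.2 TPM in replicate 1 and 80.5 TPM in replicate 2, and Adgrl2 measured 47.3 and 45.9 TPM. Adgrl3 was the lowest, with 19.9 TPM in replicate 1 and 28.4 TPM in replicate 2. Adgrl4 measured 67.1 TPM in replicate 1 and 47.2 TPM in replicate 2, a mean of 57.1 ± 14.0 TPM (SD, n = 2). The endothelial markers summed to 3907 TPM in replicate 1 and 4069 TPM in replicate 2, with 0 of 10 markers 2-fold apart. Egfl7, at 1797 TPM in each library, weighs most in that sum. Single markers went both ways, such as Kdr at 93.8 TPM in replicate 1 and 66.55 TPM in replicate 2, and Cldn5 at 669 and 815 TPM. Adgrl1 lies 158.8 kb from Adgre5, the next receptor gene on chr8.

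Of the A receptors, Adgra2 (GPR124), which works with Reck to pass Wnt7a and Wnt7b signals to brain endothelium, measured 55.0 TPM in replicate 1 and 67.3 TPM in replicate 2. On gene TPM its range overlaps that of Adgrl4 but not that of Adgrl1, so the order of Adgra2 and Adgrl4 is not separated by the spread of the libraries. Over coding models alone Adgra2 stood above Adgrl1, at 54.1 and 65.7 TPM against 45.0 and 45.3 TPM. Of the Adgra2 values, 22.5 and 28.2 TPM lay on the short coding fragment Adgra2-204. The order of Adgra2 and Adgrl1 thus depends on the models counted. Adgra3 (GPR125) measured 26.3 TPM in replicate 1 and 23.8 TPM in replicate 2, within the range of Adgrl3. Adgra1 measured 0.11 and 0.08 TPM. Adgrd1 (GPR133), the only D receptor and a partner of Ptk7, measured 7.23 TPM in replicate 1 and 5.34 TPM in replicate 2.

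The brain receptors of subfamily B, known for roles at synapses, did not reach 1 TPM in both libraries. Adgrb2 measured 0.73 TPM in replicate 1 and 4.31 TPM in replicate 2, where it stood above the detected Adgre4 and Adgrg5. Adgrb1 measured 0.41 TPM in replicate 1 and 0.62 TPM in replicate 2, from 30 and 19 counts, so its direction turns between TPM and counts. Adgrb3 had no counts. Adgrv1, the giant receptor of hair cells and photoreceptors, measured 1.17 and 0.49 TPM from 90 and 51 counts. The full-length Adgrv1 transcript was estimated at 0.05 TPM in replicate 1 and 0.03 TPM in replicate 2, while 48.3% and 62.5% of the gene's TPM fell on an 815-base processed transcript. Adgrf3 had 25 and 14 counts and Adgrg7 had 0 and 6.

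Between the libraries, 23 members averaged 10 counts or more and were compared as replicate 1 over replicate 2 after TMM scaling of the counts. Of these, 4 (17.4%) were at least 2-fold apart, against a background of 10.1% of 17334 genes. The 3 members without counts and Adgrg7 were not compared, and 19 lay within 2-fold. None of the 15 detected members was among the 4, but this is partly built in. Detection asks for 1 TPM in both libraries and so leaves out members that are low in 1 of them. Adgrb2, Adgrg2 and Adgrf2 each reached 1 TPM in 1 library only. Those higher in replicate 1 were Adgrf4, Adgrf2 and Adgrg2, beside a background of 6.69% in that direction, and the one higher in replicate 2 was Adgrb2, beside 3.37%. The spread of a single library over all genes was 0.32 on the log2 scale.

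Adgrf4 had 95 counts in replicate 1 and 8 counts in replicate 2, at 0.93 and 0.09 TPM. Its count ratio was 9.91 (95% exact Clopper-Pearson interval 4.83 to 23.6), and with a prior count of 2 its log2 ratio was 3.05. These intervals cover counting error only. Adgrf2, whose gene lies 16.7 kb from Adgrf4 on chr17 and on the same minus strand, had 137 counts in replicate 1 and 22 counts in replicate 2. Its ratio was 5.20 (interval 3.30 to 8.56). Both neighbours were thus higher in replicate 1, by counts that are small in replicate 2. Adgrg2 (GPR64), an X-linked receptor best known from the epididymis, had 291 counts in replicate 1 and 107 counts in replicate 2, a ratio of 2.27 (interval 1.81 to 2.86).

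The libraries also differ in markers of tissues other than lung. All 7 stratified squamous markers were at least 2-fold higher in replicate 1, with sums of 4173 TPM in replicate 1 and 2.21 TPM in replicate 2, where Krtdap had no counts. All 6 skeletal muscle markers were also higher in replicate 1, with 2618 TPM against 60.5 TPM. All 6 intestinal and pancreatic markers were higher in replicate 2, with 4.09 TPM in replicate 1 and 170 TPM in replicate 2, and all 4 erythroid markers were higher there, with 21922 and 61268 TPM. Of 7 neutrophil markers 4 were higher in replicate 1, with sums of 140 TPM in replicate 1 and 51.8 TPM in replicate 2. Their part in the differences of Adgrf4, Adgrf2, Adgrg2, Adgrb2 and Adgre4 was not tested. The lists of endothelium, alveolar type 1 and 2 cells, airway, and smooth muscle and fibroblast were each detected in full. None of their markers was 2-fold apart in TMM-scaled counts, though Foxj1 (log2 ratio -0.84), Aqp5 (-0.82) and Pdpn (0.81) came near. On the TPM scale Pdpn passed 2-fold, at 39.7 in replicate 1 and 19.4 in replicate 2. T and NK cell markers summed to 24.6 and 24.4 TPM with 0 of 8 apart, and of 4 mesothelial markers Wt1 was higher in replicate 2. Xist, made by female cells, had 17 and 8 counts although the labels name both sexes.

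Of the 4 receptors at least 2-fold apart, Adgrb2 was the one lower in replicate 1, at 104 counts in replicate 1 and 325 counts in replicate 2. Its ratio was 0.267 (interval 0.212 to 0.334). On the TPM scale it stood at 0.73 in replicate 1 and 4.31 in replicate 2, with an estimated effective length of 3923 bases in replicate 1 and 2137 bases in replicate 2. In replicate 2, 56.8% of its TPM lay on an 874-base retained intron model with 57.4 estimated counts, which held 21.2% and 3.74 counts in replicate 1. The deposited TPM interval of replicate 1, 0.920 to 2.60, does not hold its point value of 0.73. Such misses are not particular to Adgrb2. The Adgrf5 values of 176.03 TPM in replicate 1 and 128.68 TPM in replicate 2 lie just above their upper bounds of 175.635 and 128.588.

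Among the detected members the largest ratios fell just short of 2-fold. Adgre4 had 510 counts in replicate 1 and 221 counts in replicate 2, a ratio of 1.93 (interval 1.64 to 2.26) and a log2 ratio of 0.94. Scaled by library size or taken as TPM, it passed 2-fold. Adgrl3 had 2591 counts in replicate 1 and 3937 counts in replicate 2, a ratio of 0.549 (interval 0.522 to 0.577) and a log2 ratio of -0.86. The remaining 13 detected members had log2 ratios from -0.47 for Adgra2 and Adgrg3 to 0.36 for Adgrg6. The sign of Adgre5 (-0.07) and of Adgra3 (-0.08) turned with scaling by library size and with TPM, so neither has a direction.

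**Figure D2:**
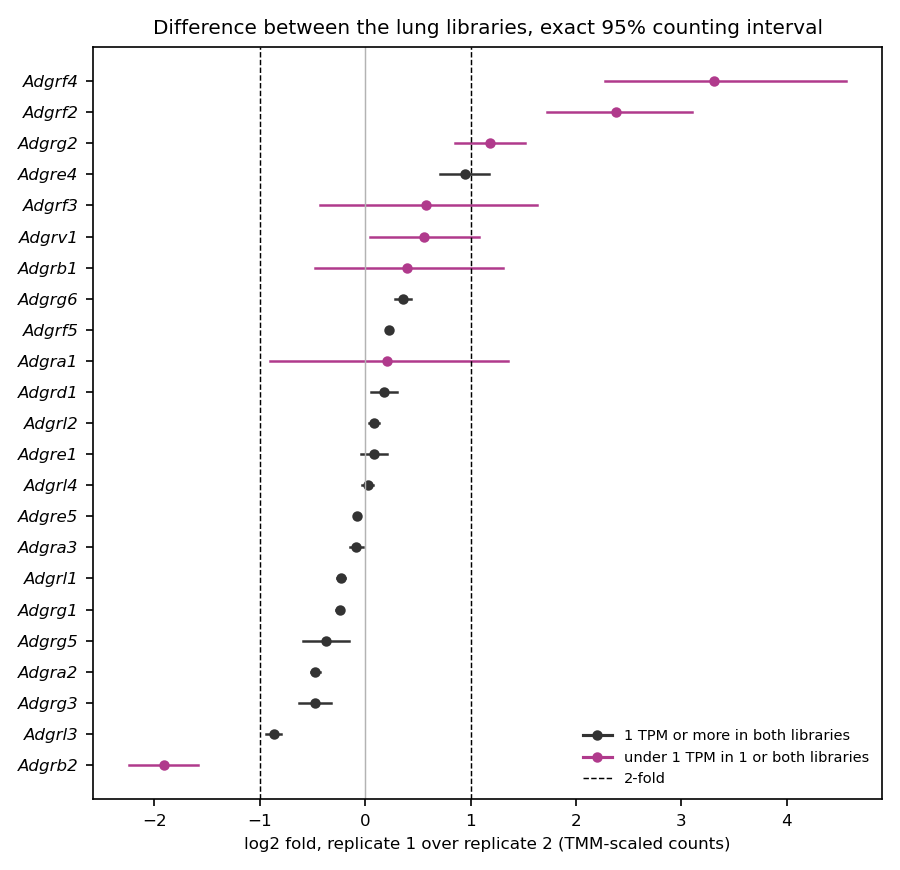
Log2 fold of replicate 1 over replicate 2 in TMM-scaled counts for the 23 members averaging 10 counts or more, with exact 95% counting intervals as bars. Dark points are members at 1 TPM or more in both libraries and purple points are the rest. All dark points lie between the dashed 2-fold lines, and 4 purple points lie outside them, Adgrf4, Adgrf2 and Adgrg2 to the right and Adgrb2 to the left.

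The transcript tables divide each receptor among its models. Protein-coding transcripts held 89.2% of the family's TPM in replicate 1 and 86.8% in replicate 2, and retained intron models held 7.37% and 10.5%. Of the 15 detected members, 5 (Adgrf5, Adgra3, Adgrg3, Adgrg6 and Adgre4) have a single model. Among the 10 with several, 7 had the same leading transcript in both libraries, and Adgra2, Adgrl1 and Adgrl2 did not. The same share over all genes with several models is not given here, so the count describes these receptors only.

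Adgre5 is known in mouse in forms that differ in their EGF-like modules and in a stretch between them. Adgre5-202 held 56.9% of the gene's TPM in replicate 1 and 45.9% in replicate 2, and Adgre5-203 held 26.1% and 36.1%. The pair differ by a 135-base coding exon at chr8:83731903-83732037 on the minus strand, which adds 45 codons. Transcripts with it held 63.4% of the TPM of the models that span it in replicate 1 and 52.3% in replicate 2, a mean of 57.9% ± 7.82 (SD, n = 2). A second coding exon, of 147 bases at chr8:83730111-83730257, was present in models with 92.4% and 93.4% of that TPM. The exons are shown because they set which extracellular part of the most abundant receptor is encoded. Capitals mark cysteine codons, of which the longer exon holds 6, the number that an EGF-like module pairs into disulfide bonds, and the shorter holds 0.
Adgre5 exon of 135 bases: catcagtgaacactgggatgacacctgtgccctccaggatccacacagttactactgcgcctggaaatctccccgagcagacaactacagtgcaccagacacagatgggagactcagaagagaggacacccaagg
Adgre5 exon of 147 bases: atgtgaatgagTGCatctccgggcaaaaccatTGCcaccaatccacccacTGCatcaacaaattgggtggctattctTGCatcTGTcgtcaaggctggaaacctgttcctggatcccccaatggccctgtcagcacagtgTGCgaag

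Adgrg1 was read from a pair of models that start 7264 bases apart and encode the same 2061-base coding sequence. Adgrg1-202 held 85.3% of the gene's TPM in replicate 1 and 78.5% in replicate 2, and Adgrg1-201, from the downstream start, held 14.7% and 21.5%. Both starts were thus in use in these estimates, with the upstream one higher in both libraries. Adgrd1-201, Adgre1-202 and Adgrg5-205 each held more than 80% of their gene in both libraries.

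Short models that hold few counts weighed heavily on the TPM of several receptors. Adgrl1-208, a retained intron model of 440 bases, held 26.9% of Adgrl1 TPM in replicate 1 and 41.5% in replicate 2 from 160 and 271 of the gene's 11396 and 11103 counts. The coding models Adgrl1-207 and Adgrl1-204 held 39.1% and 20.8% in replicate 1 and 33.3% and 17.3% in replicate 2. Over coding models alone, Adgrl1 measured 45.0 TPM in replicate 1 and 45.3 TPM in replicate 2. Adgrl4-204, a processed transcript of 345 bases, held 38.4% and 27.1% of Adgrl4 TPM from 127 and 61.1 counts, and the coding Adgrl4-201 held 60.4% and 72.9%. Over coding models Adgrl4 measured 40.5 TPM in replicate 1 and 34.4 TPM in replicate 2.

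In Adgrl2 the leading model differed between the libraries. Its retained intron model Adgrl2-201, of 2585 bases and with 1052 and 1766 estimated counts, took 25.9% of the gene's TPM in replicate 1 and 45.9% in replicate 2, against 59.95% and 38.5% on the coding Adgrl2-202. Adgra2 divided between the full model Adgra2-201, at 48.2% and 41.5%, and Adgra2-204, a 1149-base coding fragment whose start was not found, at 40.8% and 41.9%. A shorter coding form, Adgra2-202, held 9.32% in replicate 1 and 14.4% in replicate 2. It lacks coding exons of 225, 220 and 200 bases. The 225-base exon was present in models with 84.2% of the spanning TPM in replicate 1 and 75.3% in replicate 2.

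Adgrl3 is known for many splice forms, and its 32 models exceeded those of any other member. Adgrl3-219 led in both libraries with 41.3% of TPM in replicate 1 and 38.6% in replicate 2, and no other model reached 20%. Adgrl3-210 differs from it by coding exons of 27 bases, at chr5:81757986-81758012, and of 39 bases, at chr5:81774393-81774431, on the plus strand. The 27-base exon was present in models with 9.36% of the spanning TPM in replicate 1 and 29.5% in replicate 2, and the 39-base exon in models with 8.60% and 19.2%. Both exons were estimated higher in replicate 2, the library in which Adgrl3 itself was higher. These shares rest on the division of TPM among 22 and 23 spanning models. The deposited TPM intervals of Adgrl3-210 overlap, at 0.472 to 1.88 in replicate 1 and 1.82 to 5.41 in replicate 2. These intervals are a loose guide, since the replicate 1 value of Adgrl3-219, 8.22 TPM, lies above its own upper bound of 8.08. The shorter exon is shown, with no cysteine codon to capitalise.
Adgrl3 exon of 27 bases: ctatgaggataacagacccttcatcaa

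**Figure D3:**
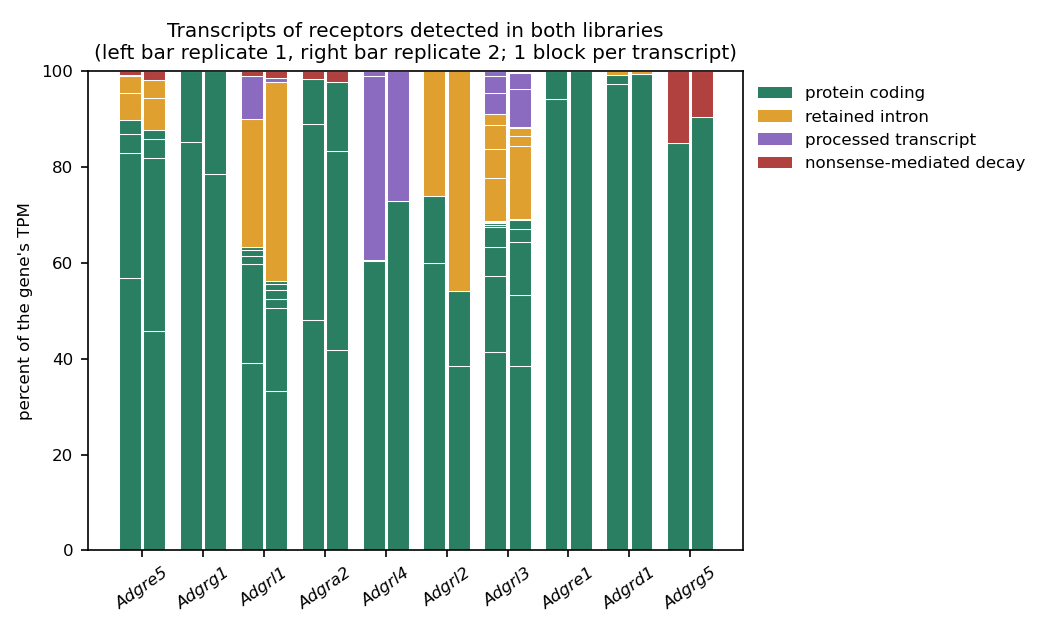
Percent of each gene's TPM on each transcript model for the 10 detected receptors with more than 1 model, the left bar for replicate 1 and the right bar for replicate 2, with 1 block per transcript coloured by its annotated class. Coding models fill the whole of Adgrg1 and Adgre1, and the coding share is lowest for Adgrl2 and Adgrl1 in replicate 2, at 54.1% and 56.2%.

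The known ligands of the detected receptors were unevenly present, beside a background of 60.5% of all protein-coding genes detected. For the latrophilins, 2 of 7 teneurin and FLRT genes were detected, Flrt3 at 8.69 TPM in replicate 1 and 5.04 TPM in replicate 2 and Flrt2 at 3.64 and 4.11 TPM. The teneurins ranged from 0 to 1.36 TPM over both libraries. One of the 6 genes of this list with enough counts, Tenm2, was at least 2-fold higher in replicate 1, with 99 counts in replicate 1 and 20 in replicate 2. Each latrophilin stood above the most abundant listed ligand, Flrt3, in both libraries.

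Of 18 other listed ligands and partners, 13 were detected, beside 60.5% of all protein-coding genes, and none of the 14 compared was 2-fold apart. Transglutaminase Tgm2 measured 256 TPM in replicate 1 and 276 TPM in replicate 2, and Col3a1 113 and 87.9 TPM, both partners of Adgrg1. Col4a1, Prnp and Lama2, reported ligands of Adgrg6, measured 236, 90.1 and 11.8 TPM in replicate 1 and 237, 88.9 and 10.6 TPM in replicate 2. For Adgrf5, Sftpd measured 245 and 220 TPM and Fndc4 8.88 and 9.16 TPM. For Adgre5, Cd55 measured 21.4 TPM in replicate 1 and 19.6 TPM in replicate 2, far below its receptor, and Thy1 20.7 and 18.3 TPM.

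The Adgra2 partner Reck measured 38.9 TPM in replicate 1 and 36.7 TPM in replicate 2, with Wnt7a at 9.60 and 9.03 TPM and Wnt7b at 11.3 and 6.34 TPM. Ptk7 measured 48.9 and 47.9 TPM. The ligands of the brain B receptors were not detected: C1ql1 to C1ql4 lay between 0 and 0.20 TPM, and Rtn4r stood at 0.98 TPM in replicate 1 and 1.31 TPM in replicate 2.

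The listed genes of the G proteins that carry receptor signals into the cell were broadly present. Of the 13 listed G alpha subunit genes 12 were detected, beside 60.5% of all protein-coding genes. The list does not hold every G alpha gene. Levels ran from Gnas at 934 TPM in replicate 1 and 839 TPM in replicate 2, and Gnai2 at 859 and 755 TPM, to Gnaz at 3.95 and 2.63 TPM. Gna12 and Gna13, which couple to many adhesion receptors, measured 107 and 38.1 TPM in replicate 1 and 104 and 37.5 TPM in replicate 2. Gnal was below 1 TPM in both libraries. None of these 13 genes was 2-fold apart. Celsr2 measured 23.8 and 21.4 TPM, Celsr1 11.4 and 11.1 TPM, and Celsr3 0.71 and 0.73 TPM.

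**Figure D4:**
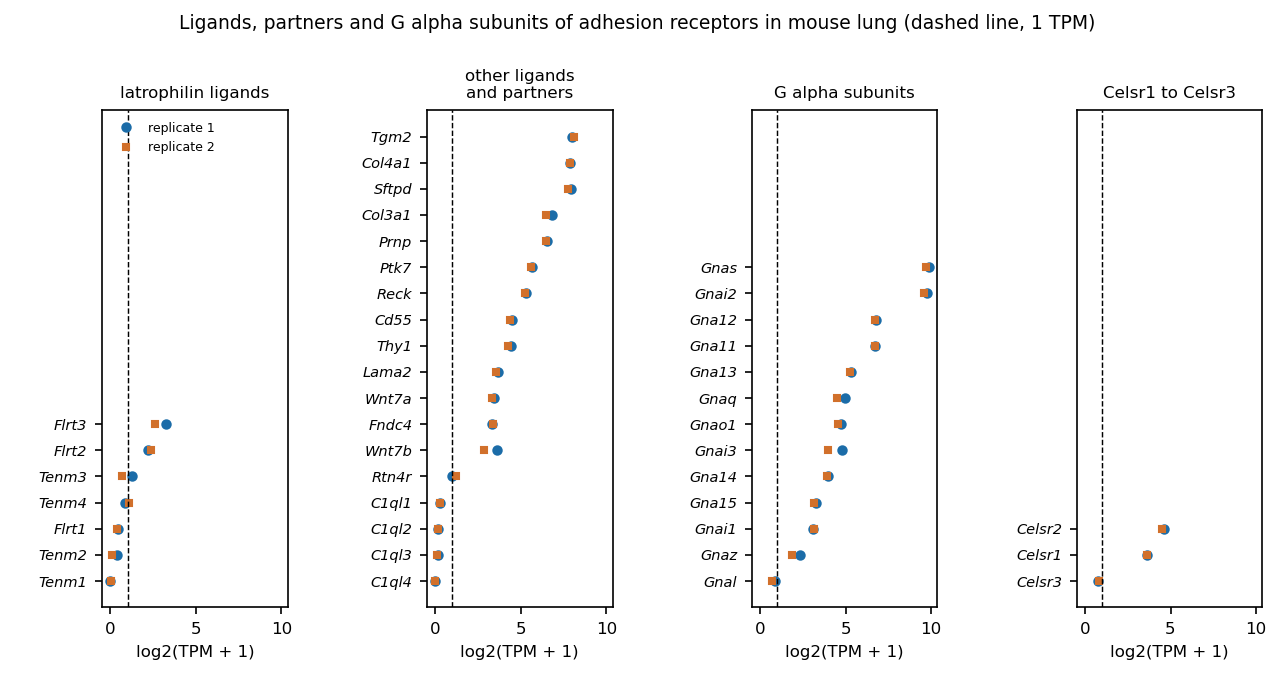
Levels of listed ligands and partners, G alpha subunits and the Celsr receptors on the log2(TPM + 1) scale, with a circle for replicate 1 and a square for replicate 2. The dashed lines mark 1 TPM. The C1ql genes, Tenm1 and Tenm2 lie left of the line, and Gnas and Gnai2 lie farthest right.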

How the data were processed

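Both libraries are stranded paired-end libraries of polyadenylated RNA, read at 76 nt, per the labels. The authors deposited expected counts (estimated fragment numbers, not normalized), TPM values (scaled to a fixed total over all rows), FPKM values and a percent of each gene's TPM per transcript, per the file headers. The deposited signal bounds of a TPM interval have a level the sources used here do not state. Reads were placed on mm10 with GENCODE M4, per the deposited file lists; the sources used here name no aligner or quantifier, and contig and junction lists on mm9 were not used here. Symbols, models, coordinates and sequences came from GENCODE M21 for mm10. Of 43346 gene identifiers 42462 matched, and 154 of the 155 receptor transcripts, 141 of them with the same length. No protein sequences were used.

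Expected counts were rounded and scaled with edgeR 4.0.16 TMM in R 4.3.3 (prior count 2), with DESeq2 1.42.0 size factors as an alternative. Detection required 1 TPM in each library, and a 2-fold call an average of 10 counts. The spread of a library is the scaled median absolute deviation of log2 ratios over the square root of 2. The scaling step was tested on simulated counts with known folds. Python 3.11.15, pandas 2.3.3, scipy 1.17.1 and Biopython 1.88 did the rest. All members are accounted for, and transcripts of detected members are named when leading or at 20% or more of their gene in either library, beside coding forms that were picked after their values were seen (Adgra2-202, Adgrl3-210 and the models of Adgrb2 and Adgrv1). One further list of the plan is not reported here. Members and lists were chosen with earlier results of these data known.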

Additional observations from a re-analysis of the deposited data

How the results depend on the processing

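No paired analysis was possible because the 2 libraries form 1 group with 1 library per replicate number. The count of detected receptors was 15, with 14 to 17 at thresholds of 2 and 0.5 TPM, and 16 to 18 when either replicate was left out. The median level, 2.41 on log2(TPM + 1), was 2.14 with a pseudocount of 0.1, 2.10 on FPKM, 3.29 over members at 0.1 TPM or more in either library, and 2.30 over protein-coding transcripts, an alternative chosen after seeing the data. It was 2.41 without either replicate, though a different member held the median in each library. The share of the leading 3 members, 70.5% on average, ran from 69.5% to 71.5% without a replicate and was 74.1% over protein-coding transcripts. The count of members 2-fold apart was 4, beside 10.1% of all compared genes. It was 5 by library size, beside 10.7%, and 6 by log2(TPM + 0.1), beside 10.9%. With no count minimum it was 5, and the share over all genes is not given for that setting. The count with the same leading transcript, 7 of 10, was 9 of 10 among coding models and 11 of 15 at 0.1 TPM. Of single log2 ratios, Adgrb2 (-2.41) and Adgrf4 (2.44) moved on log2(TPM + 0.1). Over coding transcripts the mean TPM of 6 detected members moved beyond the spread of the libraries and that of 9 did not. The median log2 ratio of all genes was 0.02 with TMM, 0.15 by library size and 0.22 by TPM. Members with fewer than 10 counts per library cannot be ordered at this depth.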
